A study of Mus musculus with 32 samples.

Results

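The subject is 7 ligands of the tumour necrosis factor (TNF) superfamily, Tnf, Lta, Ltb, Tnfsf4, Tnfsf9, Tnfsf10 and Tnfsf11, in thymocytes of irradiated mice. They were found by matching these symbols to the gene names that the array files give each probe. All 7 were on the array, on 8 of its 41174 probes, out of 28786 gene names in all. Tnfsf11 had a pair of probes and each of the others had 1. All 7 passed the filter on dim probes, which asked for a signal well above background on at least 4 arrays, and so were among the 20537 genes tested.

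RNA of thymocytes was measured on 32 single-colour Agilent mouse arrays, 1 sample per array. The mice were C57Bl/6, 6 weeks old, and each sample pooled thymocytes of 2 mice, recorded as 1 male and 1 female. Thymocytes were taken 2 h or 4 h after 5 Gy of gamma radiation from a caesium source, or from mice that had not been irradiated (0 h). P72 and R72 mice carry p53 with proline or arginine at codon 72, and each had 4 arrays, from 4 independent experiments, at each of 0 h, 2 h and 4 h. p53-/- mice lack p53 and p53+/+ mice are their wild-type counterpart. Each of these had 1 array at 2 h, 1 at 4 h and 2 at 0 h, and it is not recorded whether those 2 untreated arrays hold separate pools. For these genotypes the mean of the 2 h and 4 h arrays was therefore set against the mean of the 2 untreated ones. With 1 array at each irradiated time, the irradiated arrays gave no spread of their own. The fit took its spread from the groups with more than 1 array, mostly those of P72 and R72 samples. The p-values therefore do not measure the spread between irradiated samples of these genotypes. How the P72, R72 and null alleles were made is not given in the sources used here.

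A level below is the log2 of the array's processed signal minus the 75th percentile of that array, so a level of 0 is the brightness of the 75th percentile. A change is a difference of mean levels, given in log2 with its standard error (SE). A change was called where limma's moderated test gave a Benjamini-Hochberg adjusted p under 0.05 over all genes tested. The levels of different probes cannot be set against each other, because each probe binds its RNA with its own efficiency.

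The 75th percentile lay between 268.32 and 1031.3 signal units over the 32 arrays, and between 52.171% and 71.174% of probes were well above background. The markers of CD4+ CD8+ double positive thymocytes Cd4, Cd8a, Cd8b1, Rag1, Rag2 and Dntt were well above background on all 32 arrays. Trp53 itself lay between -0.50 and -0.10 on the p53-/- arrays and between -0.13 and 0.24 on the p53+/+ arrays. The part of Trp53 deleted in the null mice is not given here, so this probe does not check the genotype label. Xist, which is transcribed from the inactive X chromosome of females, went against the recorded pools of both sexes. In P72 and R72 samples it lay between -7.92 and -3.74 in replicates 1 and 3 and between 5.11 and 5.83 in replicates 2 and 4. It lay between -8.82 and -7.20 on all p53-/- arrays, at 5.5 on both irradiated p53+/+ arrays, and at -0.88 and -1.46 on the untreated p53+/+ arrays. Changes within the P72 and R72 time courses compared the same mix of high and low Xist samples, whereas the comparisons that use p53+/+ samples, irradiated or untreated, did not.

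TNF superfamily ligands are mostly made as membrane proteins that assemble into trimers, some of which are cut off to act as soluble cytokines. They bind receptors of the matching superfamily on other cells, which recruit TRAF and death domain adaptors and so switch on the NF-κB transcription factors or, for some receptors, caspases and apoptosis. In the thymus, lymphotoxin and the Tnfsf11 product RANKL from developing lymphocytes are known to drive the growth of medullary epithelial cells. p53 is a transcription factor that is stabilised by DNA breaks and starts the death of irradiated thymocytes.

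Tnf, Lta and Ltb are neighbours in the major histocompatibility complex, and their probes lie in a row on mouse chromosome 17 (build mm7 in the array files). The Ltb probe is at chr17:33292571-33292630 on the plus strand, the Tnf probe at chr17:33296067-33296126 on the minus strand and the Lta probe at chr17:33299547-33299606 on the minus strand. There are 3436 bases between the Ltb and Tnf probes and 3420 bases between the Tnf and Lta probes. Because these 3 genes are set side by side below, the 250 bases before their transcription starts are shown, from RefSeq on build GRCm38.p6, each read 5′ to 3′ along its own gene. These are chr17:35202008-35202257 on the minus strand for Tnf, chr17:35205352-35205601 on the minus strand for Lta and chr17:35194257-35194506 on the plus strand for Ltb. Capitals mark the only match to the NF-κB consensus.
Tnf: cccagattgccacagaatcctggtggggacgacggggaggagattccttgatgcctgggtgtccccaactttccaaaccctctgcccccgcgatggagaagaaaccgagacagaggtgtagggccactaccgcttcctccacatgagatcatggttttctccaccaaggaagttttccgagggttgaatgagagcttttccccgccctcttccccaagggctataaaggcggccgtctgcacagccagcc
Lta: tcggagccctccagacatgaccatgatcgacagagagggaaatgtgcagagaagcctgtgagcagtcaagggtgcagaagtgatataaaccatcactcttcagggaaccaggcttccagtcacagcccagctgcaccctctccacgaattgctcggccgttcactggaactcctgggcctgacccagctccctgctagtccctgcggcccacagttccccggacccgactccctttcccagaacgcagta
Ltb: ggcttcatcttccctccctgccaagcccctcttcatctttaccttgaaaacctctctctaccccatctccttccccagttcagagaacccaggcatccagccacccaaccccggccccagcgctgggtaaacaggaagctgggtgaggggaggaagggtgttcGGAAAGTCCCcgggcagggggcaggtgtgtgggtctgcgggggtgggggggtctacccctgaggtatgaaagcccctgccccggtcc

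The match in Ltb lies 87 to 78 bases before the start, on the strand opposite to the gene. The NF-κB consensus and the p53 half-site consensus were searched on both strands in the same window of the 5 members that the RefSeq table holds, Tnf, Lta, Ltb, Tnfsf10 and Tnfsf11. The Ltb match was the only one of either motif. Of 32851 mouse promoters in that table, 2382 (7.25%) held the NF-κB consensus and 2341 (7.13%) the p53 half-site. A match is a run of letters and not a measured binding site, and a missing match says nothing of the factor. Tnfsf4 and Tnfsf9 had no entry.

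The other probes lie at chr1:161380326-161380384 on the plus strand for Tnfsf4, chr17:55318447-55318506 on the plus strand for Tnfsf9 and chr3:27151623-27151682 on the plus strand for Tnfsf10 (mm7). The Tnfsf11 probes lie at chr14:72958504-72958563 and chr14:72958725-72958784 on the minus strand. The first 30 of the 60 bases of the probes for Tnfsf4 and Tnf, on which most of the results below rest, identify what was measured.
Tnfsf4: tgcagagtatacgagagatttttaccctga
Tnf: tgggctttccgaattcactggagcctcgaa

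Tnfsf4, which encodes OX40 ligand, a costimulator of activated T cells, went from below detection to readily detected within 2 h of irradiation in P72, R72 and p53+/+ thymocytes. It was not well above background on any of the 12 untreated arrays of the 4 genotypes, so its level there is only an upper bound. It passed the filter on dim probes through irradiated arrays alone. In P72 samples its levels were -7.92, -7.51, -8.03 and -7.15 at 0 h, -0.996, -0.82, -0.56 and -0.72 at 2 h, and -1.17, -1.10, -0.50 and -0.60 at 4 h. All 8 irradiated P72 samples were far above all 4 untreated ones, and the 2 h and 4 h samples overlapped. In R72 samples the levels were -7.28, -6.97, -6.39 and -8.13 at 0 h, -0.97, -0.62, -0.57 and -0.14 at 2 h, and -0.63, -0.69, -0.86 and -0.74 at 4 h. The same gap separated irradiated from untreated R72 samples. In both genotypes the gap was present in replicates 1 and 3, which had low Xist, and in replicates 2 and 4, which had high Xist. In such bulk samples a change in the share of a cell type and a change in the RNA per cell cannot be told apart, for this and every other gene below.

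The rise of Tnfsf4 at 2 h was at least 29.4-fold in P72 samples (measured difference 6.88 ± 0.27 SE, adjusted p = 2.47e-13, limma). It was at least 34.6-fold in R72 samples at 2 h (6.62 ± 0.27, adjusted p = 4.76e-13). These bounds set the irradiated mean against the dimmest signal that was still well above background on each untreated array. At 4 h the bounds were 28.1-fold in P72 (6.81 ± 0.27, adjusted p = 2.3e-13) and 31.1-fold in R72 (6.46 ± 0.27, adjusted p = 8.25e-13). From 2 h to 4 h no further change was called. The 4 h against 2 h difference was -0.07 in P72 samples, with a 95% interval of -0.64 to 0.50 (adjusted p = 0.876), and -0.15 in R72 samples (adjusted p = 0.734). The arrays fell into 4 scan dates, and the rise was called within each scan date that held both times except 1. The exception was R72 at 2 h on the third scan date, with 1 array a side (difference 7.99, adjusted p = 0.118). A background correction by normexp, which raised the signal floor, gave smaller differences of 2.59 for P72 and 1.92 for R72 at 2 h, both still called.

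At 2 h Tnfsf4 was the only one of the 7 ligands called in P72 samples, where 14.5% of all genes were called. In R72 samples at 2 h Tnfsf4 and Ltb were called, against 13% of all genes. At 4 h Tnfsf4, Tnf and Lta were called in P72 samples, where 56.6% of all genes were called, and Tnfsf4 and Tnf in R72 samples, where 44.8% were. The shares of members called at 4 h were no higher than those of all genes, and all those calls were rises. The median change of the 7 ligands at 4 h was 0.23 in P72 and 0.17 in R72. Over all genes 63.2% of the calls in P72 and 64.3% in R72 were rises at 4 h, but with arrays centred on their median 26.7% and 25.8% were, and with quantile normalization 51.9% and 55%. Taken over all genes, the median change at 4 h was 0.105 for P72 samples and 0.094 for R72 samples, against -0.519 and -0.383 with median centring, so small changes at 4 h depend on the scaling.

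**Figure D1:**
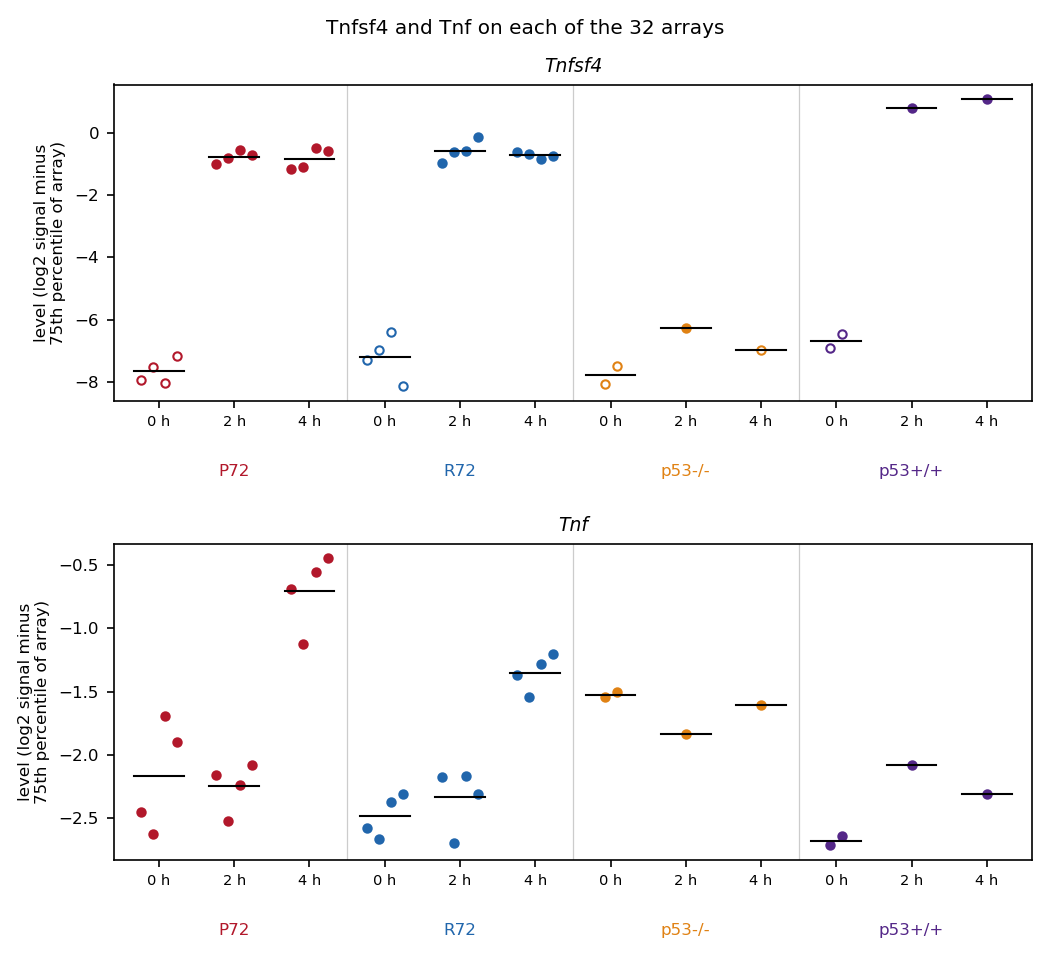
Levels of Tnfsf4 (top) and Tnf (bottom) on each of the 32 arrays, by genotype and time after 5 Gy, as log2 signal minus the array's 75th percentile. Points are arrays, filled where the probe was well above background, and lines are group means. Tnfsf4 lies between -8.13 and -6.39 on all untreated arrays and between -1.17 and 1.09 on all irradiated arrays other than p53-/-, where it stays at -6.25 and -6.97, while Tnf is highest in P72 samples at 4 h.

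Tnf, the founding inflammatory cytokine of the family, rose later than Tnfsf4. In P72 samples its levels were -2.45, -2.63, -1.70 and -1.90 at 0 h, -2.16, -2.52, -2.24 and -2.08 at 2 h, and -0.69, -1.12, -0.55 and -0.45 at 4 h. All 4 samples at 4 h were above all 8 earlier ones, while the 0 h and 2 h samples overlapped. In R72 samples the levels were -2.58, -2.67, -2.37 and -2.31 at 0 h, -2.17, -2.70, -2.16 and -2.31 at 2 h, and -1.37, -1.55, -1.28 and -1.21 at 4 h. Again the 4 samples at 4 h were above all 8 earlier ones.

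At 4 h against 0 h Tnf rose by 1.47 ± 0.19 in P72 samples (adjusted p = 2.56e-06, limma) and by 1.13 ± 0.19 in R72 samples (adjusted p = 7.54e-05). At 2 h against 0 h no change was called, with differences of -0.08 in P72 (adjusted p = 0.817) and 0.15 in R72 (adjusted p = 0.651). At 4 h against 2 h Tnf rose by 1.54 ± 0.19 in P72 (adjusted p = 1.5e-05) and by 0.99 ± 0.19 in R72 (adjusted p = 0.00191). Within single scan dates the 4 h against 0 h rise was 1.63 and 1.30 in P72 and 1.17 and 1.07 in R72, all called. The R72 rise from 2 h was 0.98 on scan date 1 alone and was not called there (adjusted p = 0.0979). The R72 call at 4 h against 0 h was lost with the normexp background (0.59, adjusted p = 0.106).

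Some markers of several other cells were also called higher at 4 h. Their counts stand against 35.8% of all genes called higher in P72 samples and 28.8% in R72 samples. In R72 samples the macrophage and thymic epithelium shares were near that of all genes, and the neutrophil share was below it. Macrophages and dendritic cells are known to make Tnf too. Summed signals of the listed markers, in units of each array's 75th percentile, were compared. Here and below such a sum follows mostly its brightest probes and does not measure the number of cells. The brightest had mean levels of 5.63 (Lyz2, macrophage), 1.86 (Cd83, dendritic) and 5.75 (S100a9, neutrophil). For NK and innate lymphoid cells it was Gzma (1.58), for B cells Cd79b (2.16) and for thymic epithelium Krt18 (3.44). The 10 macrophage markers summed to 74.9 to 101 in P72 samples at 4 h, against 27.5 to 52.6 at 0 h, and 7 of the 10 were called higher. In R72 samples they summed to 65.7 to 102 at 4 h, against 46 to 69.1 at 0 h, with 4 of 10 called higher. Of 8 dendritic markers tested 6 were called higher in P72 and 5 in R72, with sums of 11.7 to 13.9 at 4 h against 2.49 to 5.17 at 0 h in P72 and 7.95 to 10.8 against 4.32 to 4.94 in R72. Ccl22, on that list, was well above background on 1 array. The 9 neutrophil markers summed to 68.9 to 142 in P72 at 4 h, against 34.4 to 61.2 at 0 h, with all 9 called higher, and in R72 to 65.6 to 134 against 66.2 to 85.5, with 1 called higher. The 9 thymic epithelium markers summed to 33.3 to 43.3 in P72 at 4 h, against 6.35 to 14.8 at 0 h, with 7 called higher, and in R72 to 32.2 to 53.3 against 17.4 to 21.4, with 3 called higher. With median centring the markers called higher in P72 and R72 were 2 and 1 for macrophages, 4 and 4 for dendritic cells, 3 and 0 for neutrophils, and 6 and 2 for thymic epithelium. There 1 dendritic marker in each genotype and 1 thymic epithelium marker in R72 were called lower. NK and innate lymphoid markers summed to 2.03 to 2.71 at 4 h against 5.2 to 8.04 at 0 h in P72. In R72 they summed to 1.5 to 2.53 against 4.78 to 6.61. On the p53+/+ array at 4 h, macrophage, dendritic, neutrophil and thymic epithelium markers summed to 70.9, 7.74, 85.7 and 34.5. The highest untreated p53+/+ sums were 38.7, 4.02, 29.4 and 18.7. Tnf lay at -2.31 on that array, against -2.72 and -2.64 untreated. The part of these cells in the change of Tnf or of any other ligand or receptor was not tested. The double positive thymocyte markers summed to 984 to 1090 in P72 at 4 h and 879 to 1120 at 0 h. In R72 they summed to 1030 to 1113 at 4 h, above the 884.1 to 1028 at 0 h. Single positive thymocyte markers summed to 161 to 235 at 4 h against 188 to 267 at 0 h in P72. In R72 they summed to 135 to 183 against 190 to 258.

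Lta encodes lymphotoxin alpha, which is secreted or anchored at the membrane by the Ltb product lymphotoxin beta. In both genotypes each had its lowest mean at 2 h and its highest at 4 h. Lta lay at -1.27 to -0.86 at 0 h, -1.51 to -1.09 at 2 h and -0.86 to -0.41 at 4 h in P72 samples. In R72 samples it lay at -1.07 to -0.69 at 0 h, -1.47 to -0.85 at 2 h and -0.79 to -0.65 at 4 h. The P72 samples at 4 h stood above those at 2 h with no overlap, and so did the R72 samples.

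From 2 h to 4 h 4 of the 7 ligands rose in P72 samples, Tnf, Lta, Ltb and Tnfsf11, where 32.1% of all genes were called, and 3 in R72 samples, Tnf, Lta and Ltb, where 21% were. Lta rose by 0.64 ± 0.14 in P72 (adjusted p = 0.00253) and by 0.41 ± 0.14 in R72 (adjusted p = 0.043), and with median centring neither was called (0.23 and 0.05). The R72 call was kept in only 2 of the 8 fits that left out 1 array. It was lost without 2 h replicate 2 or 3 or any one of the 4 arrays at 4 h, with adjusted p between 0.0626 and 0.13. At 4 h against 0 h Lta rose by 0.41 ± 0.14 in P72 (adjusted p = 0.0167). That call was lost without 0 h replicate 1 or without 4 h replicate 3 or 4 (0.34 to 0.36), with the authors' deposited value table (0.25) and on scan date 1 alone (0.24), and the sign turned to -0.21 with median centring. In R72 the 4 h against 0 h difference of Lta was 0.16 (adjusted p = 0.373).

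Ltb, a strongly hybridising probe on all arrays, lay at 6.15 to 6.51 at 0 h, 5.98 to 6.18 at 2 h and 6.45 to 6.80 at 4 h in P72 samples. In R72 samples it lay at 6.27 to 6.43 at 0 h, 5.67 to 6.08 at 2 h and 6.37 to 6.59 at 4 h. The R72 samples at 2 h were all below those at 0 h and at 4 h. Ltb fell by 0.46 in R72 at 2 h against 0 h (SE 0.10, adjusted p = 0.00431), while the P72 difference was -0.24 (adjusted p = 0.111). The R72 call was lost with normexp (-0.19) and with the authors' table (-0.24). The difference between these responses, P72 minus R72, was 0.22 with a 95% interval of -0.07 to 0.51 (adjusted p = 0.934). From 2 h to 4 h Ltb rose by 0.47 ± 0.10 in P72 (adjusted p = 0.00196) and by 0.63 ± 0.10 in R72 (adjusted p = 0.000478). Neither rise was called with median centring (0.06 and 0.27) or with normexp (0.35 and 0.38). At 4 h against 0 h Ltb differed by 0.23 in P72 (adjusted p = 0.0545) and 0.17 in R72 (adjusted p = 0.178), and these signs turned with median centring, to -0.39 and -0.31.

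**Figure D2:**
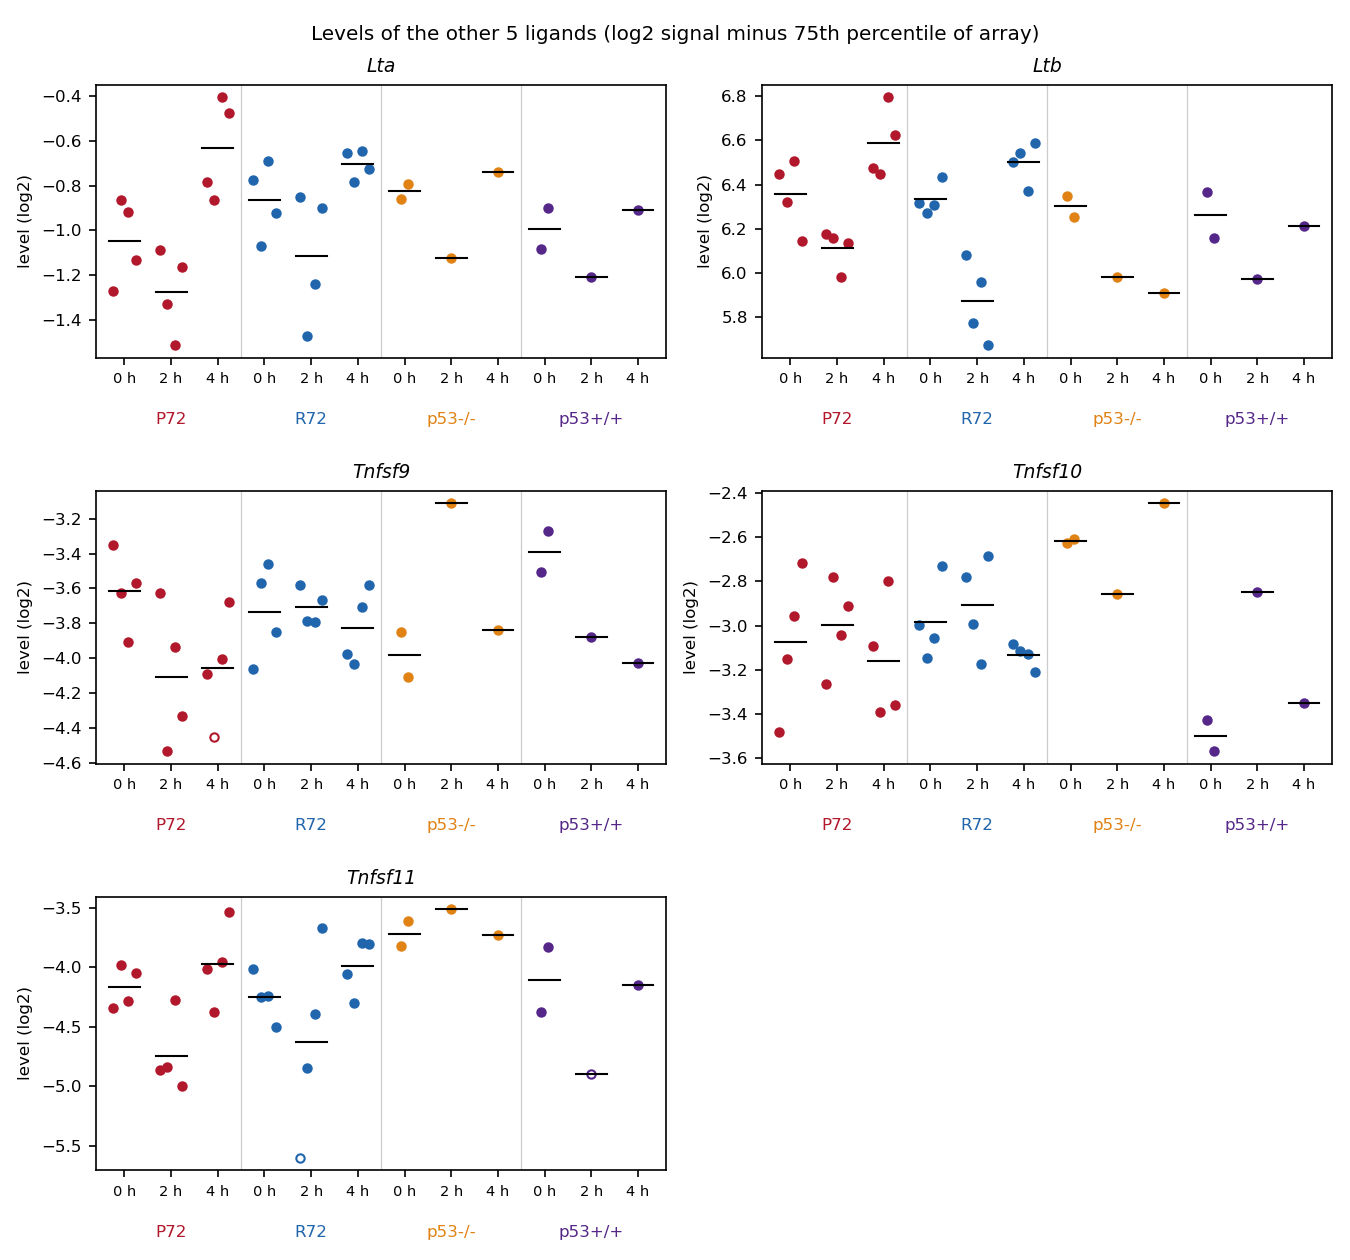
Levels of Lta, Ltb, Tnfsf9, Tnfsf10 and Tnfsf11 on each array, by genotype and time after 5 Gy, as log2 signal minus the array's 75th percentile; points are arrays, filled where well above background, and lines are group means. The means of each gene span between 0.64 and 1.39 over the 12 groups, with Ltb lowest in R72 samples at 2 h, at 5.67 to 6.08.

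The remaining 3 ligands gave 1 call between them in the P72 and R72 time courses. Tnfsf11 encodes RANKL, a ligand for osteoclasts and medullary epithelium. Its brighter probe lay at -5.00 to -4.28 at 2 h and at -4.38 to -3.54 at 4 h in P72 samples, which overlapped, and rose by 0.78 ± 0.28 (adjusted p = 0.0387). That call was lost in 6 of the 8 fits that left out 1 array, all but those without 2 h replicate 3 or 4 h replicate 2, and in 7 of 14 other settings. Its other probe gave 0.58 ± 0.32 for the same comparison (adjusted p = 0.169), and neither probe was called in any other comparison.

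Tnfsf9 encodes 4-1BB ligand, a costimulator of CD8+ T cells. It lay at -3.91 to -3.35 at 0 h, -4.54 to -3.63 at 2 h and -4.45 to -3.68 at 4 h in P72 samples. Its differences from 0 h were -0.49 ± 0.19 at 2 h (adjusted p = 0.0844) and -0.45 ± 0.19 at 4 h (adjusted p = 0.0503), neither called. The 2 h difference passed without P72 2 h replicate 1 (-0.65, adjusted p = 0.0292), with median centring (-0.70, adjusted p = 0.032) and with the authors' table (-0.37, adjusted p = 0.0455). The 4 h one passed without P72 0 h replicate 3 or 4 h replicate 4 (-0.54 and -0.57), in the fit on all 32 arrays, and with quantile normalization (-1.22, adjusted p = 0.000682), median centring (-1.07, adjusted p = 0.000267) and the authors' table (-0.59, adjusted p = 0.000249). In R72 samples the differences were 0.03 at 2 h and -0.09 at 4 h (adjusted p = 0.943 and 0.731).

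Tnfsf10 encodes TRAIL, which kills through death receptors. It lay between -3.48 and -2.68 on all 24 P72 and R72 arrays, with no call. Its differences at 4 h against 0 h were -0.09 in P72 (adjusted p = 0.671) and -0.15 in R72 (adjusted p = 0.461). Both were called lower with median centring (-0.71 in P72 and -0.63 in R72), with quantile normalization (-0.64 and -0.55) and with the authors' deposited value table (-0.37 and -0.37). A normexp fit with a capped background, added after seeing the data, gave 0.32 in P72, called higher, and 0.08 in R72, not called.

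**Figure D3:**
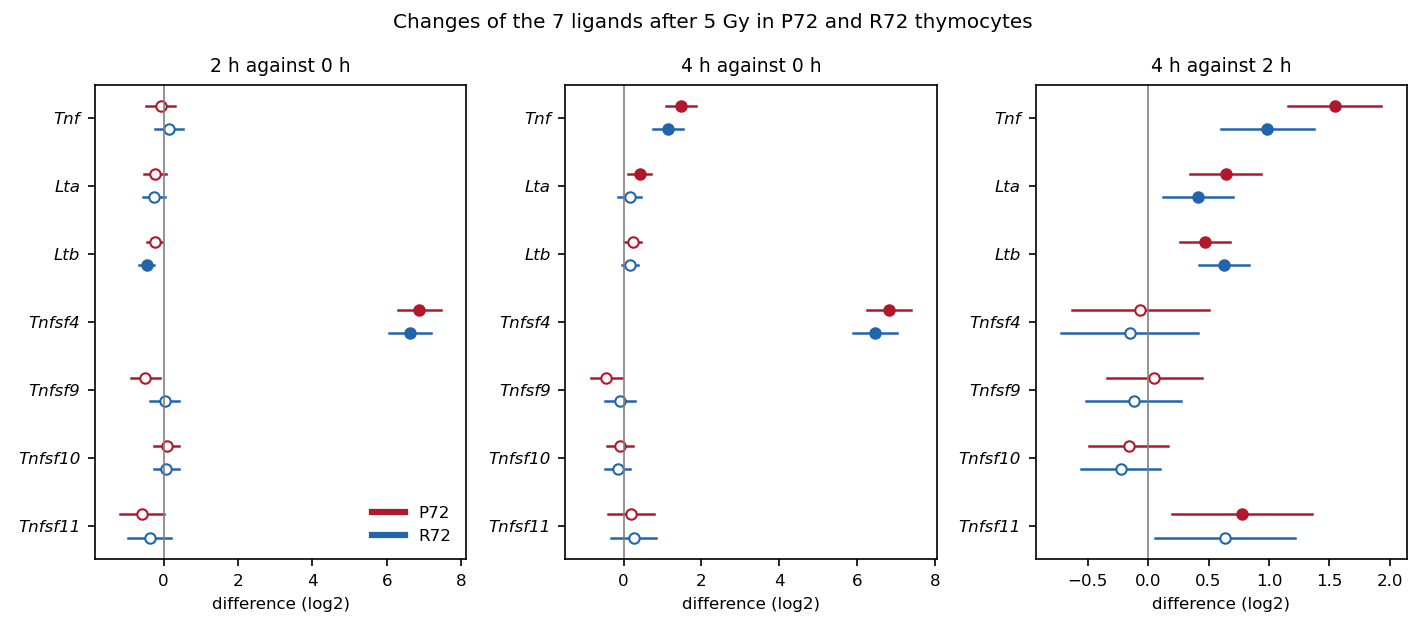
Differences in level (log2) of the 7 ligands after 5 Gy in P72 and R72 thymocytes, at 2 h and 4 h against 0 h and at 4 h against 2 h. Bars are 95% intervals, and filled points were called at an adjusted p under 0.05. Against 0 h, Tnfsf4 lies between 6.46 and 6.88 in all 4 comparisons, Tnf is called at 4 h alone, and the other ligands lie between -0.58 and 0.41. At 4 h against 2 h, Tnfsf4 lies at -0.07 in P72 and -0.15 in R72, and Tnf at 1.54 and 0.99. The other ligands lie there between -0.23 and 0.78.

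P72 and R72 samples were set against each other at each time. None of the 7 ligands was called at 0 h, 2 h or 4 h, where 0.925%, 1.29% and 1.26% of all genes were. At an unadjusted p under 0.05 the ligands that differed were Ltb and Tnfsf9 at 2 h and Tnf at 4 h, where 3463 and 2798 of the 20537 genes passed it. For Tnfsf4 the P72 minus R72 difference was -0.20 at 2 h (95% interval -0.77 to 0.37, adjusted p = 0.741) and -0.11 at 4 h (-0.68 to 0.46, adjusted p = 0.887). At 4 h all 4 P72 samples had more Tnf than all 4 R72 samples, at -1.12 to -0.45 in P72 and -1.55 to -1.21 in R72. The difference was 0.65 ± 0.19 (95% interval 0.26 to 1.03) and missed the threshold (adjusted p = 0.0956). With a replicate block in limma it was called (0.65, adjusted p = 0.0059), but the replicate numbers were not taken as pairs. Only the first scan date held both genotypes at 4 h, and there it was 0.55 (adjusted p = 0.37).

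The test that asks whether the response to radiation differed is the P72 change minus the R72 change. For Tnf it was 0.33 ± 0.26 at 4 h (adjusted p = 0.999), and for Tnfsf4 it was 0.26 at 2 h and 0.35 at 4 h (adjusted p = 0.945 and 0.999). No ligand was called in either, against 0.00487% of all genes at 2 h and 0% at 4 h. For Tnfsf4 both responses subtract 0 h levels that were not well above background. Its difference in response is thus not a measured size and cannot show whether the rises were equal.

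In thymocytes without p53 the rise of Tnfsf4 was largely missing. Its levels were -6.25 and -6.97 on the irradiated p53-/- arrays (2 h and 4 h) and -7.50 and -8.07 on the untreated ones, against 0.79 and 1.09 on the irradiated p53+/+ arrays and -6.91 and -6.46 on the untreated ones. Of the irradiated p53-/- arrays, the one at 2 h was well above background and the one at 4 h was not. Both irradiated p53+/+ arrays were far above the 6 others.

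In p53-/- samples irradiated ones differed from untreated ones by 1.17 ± 0.38, which was not called (95% interval 0.38 to 1.97, adjusted p = 0.159), and no other ligand was called where 1.07% of all genes were. At an unadjusted p under 0.05 Tnfsf4 and Ltb passed there, where 2565 of the 20534 genes tested did. In p53+/+ samples Tnfsf4 rose at least 78.8-fold (7.62 ± 0.38, adjusted p = 1.95e-12) and was the only ligand called, where 23.5% of all genes were called. The p53-/- response minus the p53+/+ response was -6.45 ± 0.54 (95% interval -7.57 to -5.32, adjusted p = 3.47e-08), the only ligand called among 5.42% of all genes. Its size is not a measured one, since Tnfsf4 was not well above background on the untreated arrays of either genotype or on the p53-/- array at 4 h. Among irradiated samples Tnfsf4 was lower in p53-/- than in p53+/+ (difference -7.55 ± 0.38, adjusted p = 2.12e-12), again the only ligand called where 21.9% of all genes were. Under the 13 alternative settings that kept the gene, the difference in response lay between -6.96 and -4.54 and was called in all 13.

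Xist differed between irradiated and untreated p53+/+ samples and between the genotypes, and its part in these differences was not tested. P72 and R72 samples held the same mix of high and low Xist at each time. Their irradiated and untreated levels of Tnfsf4 did not overlap among the low or among the high Xist replicates. They cannot show the part of Xist in the p53-/- and p53+/+ comparisons. Dendritic cells and B cells are known to make OX40 ligand. The summed dendritic markers were 2.89 and 3.81 in irradiated p53-/- samples, against 4.13 and 7.74 in irradiated p53+/+ samples. They were 5.42 to 6.93 at 2 h against 2.49 to 5.17 at 0 h in P72 samples, and 4.78 to 5.82 against 4.32 to 4.94 in R72 samples. Thymic epithelium markers summed to 17.8 to 27.4 at 2 h against 6.35 to 14.8 at 0 h in P72, with 5 of 9 called higher. In R72 they summed to 18.8 to 24.9 against 17.4 to 21.4, with 0 called. Of all genes 9.64% were called higher at 2 h in P72 and 6.25% in R72. Markers of NK and innate lymphoid cells summed to 2.29 to 2.77 at 2 h against 5.2 to 8.04 at 0 h in P72 and to 1.97 to 2.87 against 4.78 to 6.61 in R72. They summed to 16.5 at 2 h and 7.53 at 4 h in irradiated p53-/- samples, against 3.17 and 2.47 in irradiated p53+/+ samples. The B cell sums overlapped between 2 h and 0 h, at 4.69 to 6.79 against 5.22 to 7.23 in P72 and 3.35 to 4.86 against 4.36 to 5.18 in R72. The part of these cells in the rise was not tested.

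Ordered by their mean levels of Tnfsf4, the groups fell into a high and a low set with a gap of 5.40 between them. The high set ran from p53+/+ at 4 h and 2 h through R72 at 2 h and 4 h to P72 at 2 h and 4 h, and the ranges of neighbouring R72 and P72 groups overlapped. The low set held p53-/- at 2 h and 4 h and all untreated groups. Over the 12 group means, after each profile was centred on its own mean, the 3 genes with profiles most like that of Tnfsf4 were BC034076, 1700007K13Rik and Plk2, with root mean square differences of 0.68, 0.70 and 1.02. These distances and their order rest in part on signal at background, since Tnfsf4 was not well above it on any array of 5 of the 12 groups. Plk2 encodes a polo-like kinase that is a known p53 target. Tnfsf4 was the only ligand whose group means spanned more than 2 on the log2 scale, so no other ligand was matched in this way.

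Tnf was higher in p53-/- thymocytes before irradiation. Its levels were -1.50 and -1.55 on the untreated p53-/- arrays, against -2.72 and -2.64 on the untreated p53+/+ arrays. The difference was 1.15 ± 0.25 (adjusted p = 0.0283), and Tnf was the only ligand called where 0.711% of all genes were. The call was lost when any one of the 4 arrays was left out (1.12 to 1.19, adjusted p 0.148 to 0.278) and under 5 of 14 other settings. B cell markers summed to 8.16 and 8.52 on those p53-/- arrays, against 4.63 and 4.70 on those p53+/+ arrays, and macrophage markers to 51.1 and 51.7 against 38.7 on both. Xist lay at -8.42 and -8.16 on those p53-/- arrays, against -0.88 and -1.46 on those p53+/+ arrays. The part of these cells, or of the Xist difference, in the Tnf difference was not tested.

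After irradiation the levels of Tnf were -1.84 and -1.60 in p53-/- samples and -2.08 and -2.31 in p53+/+ samples (2 h and 4 h). The p53-/- samples differed by -0.20 ± 0.25 from their untreated ones (adjusted p = 0.853), and the p53+/+ samples by 0.48 ± 0.25 (adjusted p = 0.16). The p53+/+ difference passed with a scan date block (adjusted p = 0.0472) and in a fit on the 8 p53 arrays alone (0.0333). With 1 array at 4 h in each genotype, the late rise seen in P72 and R72 samples could not be tested here at 4 h alone. The p53-/- response minus the p53+/+ response was -0.68 ± 0.35 (95% interval -1.42 to 0.05, adjusted p = 0.257).

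The other 5 ligands gave no call in the p53 comparisons. The nearest was Tnfsf10 in untreated samples, at -2.63 and -2.61 in p53-/- and -3.57 and -3.43 in p53+/+. The groups did not overlap, but the difference of 0.88 ± 0.21 missed the threshold (adjusted p = 0.0561). It passed with slide as a fixed or random block (adjusted p = 0.0394 and 0.0204), with a scan date block (0.042) and with the filter on all 32 arrays (0.0348). Tnfsf9 lay at -3.11 and -3.84 in irradiated p53-/- samples and at -4.11 and -3.85 in untreated ones, against -3.88 and -4.03 and against -3.50 and -3.27 in p53+/+. Its difference in response was 1.07 ± 0.37 (adjusted p = 0.0893), and it passed without the p53-/- array at 4 h (1.44, adjusted p = 0.0395). Tnfsf11 was 0.91 ± 0.38 higher in irradiated p53-/- than in irradiated p53+/+ samples, not called (adjusted p = 0.0911). Lta differed by at most 0.17 and Ltb by at most 0.36 in size in any of the 5 comparisons.

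**Figure D4:**
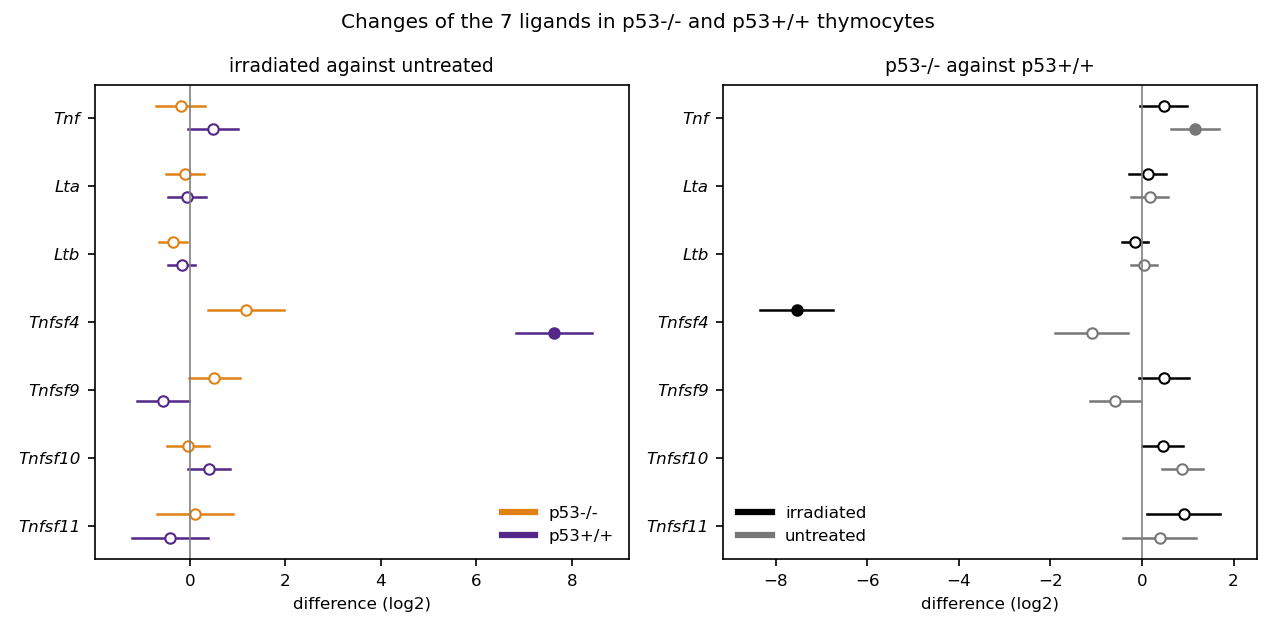
Differences in level (log2) of the 7 ligands in p53-/- and p53+/+ thymocytes, with 95% intervals; filled points were called at an adjusted p under 0.05. Tnfsf4 differs by 1.17 in p53-/- and 7.62 in p53+/+ samples after 5 Gy, while Tnf is called only in untreated p53-/- against untreated p53+/+ samples (1.15).

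At 4 h most receptors of these ligands were higher than at 0 h. All 11 listed receptors and decoy receptors were tested. At 4 h against 0 h 9 were higher and 1 lower in P72 samples, with a median change of 1.35 against 0.11 over all genes, and 8 were higher and 0 lower in R72 samples, with a median of 0.70 against 0.09. Of all genes 35.8% were called higher and 20.8% lower in P72, and 28.8% higher and 16% lower in R72. Both counts of higher receptors include Tnfrsf23, which was well above background on no 0 h array. That gene passed the filter on dim probes through irradiated arrays alone. With median centring the receptors split into 8 higher and 2 lower in P72 and 3 higher and 2 lower in R72, and with quantile normalization into 8 and 1, and 5 and 1. At 2 h 4 were higher in P72, where 9.64% of genes were, and 1 in R72, where 6.25% were.

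Tnfrsf10b, the mouse death receptor for TRAIL, was the only receptor called at 2 h in both genotypes. It rose by 1.66 ± 0.16 at 2 h and 2.01 ± 0.16 at 4 h in P72 (adjusted p = 3.38e-07 and 8.52e-09) and by 1.60 ± 0.16 and 1.59 ± 0.16 in R72. In irradiated p53+/+ samples it rose by 2.95 ± 0.23 (adjusted p = 3.95e-09), whereas the p53-/- difference was -0.05. Its p53-/- response minus p53+/+ response was -2.99 ± 0.32 (adjusted p = 2.04e-06). Its ligand Tnfsf10 gave no call in any of these comparisons.

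Tnfrsf4, which encodes the OX40 receptor of Tnfsf4, rose by 1.32 ± 0.14 in P72 (adjusted p = 2.16e-07) and 0.89 ± 0.14 in R72 at 4 h (adjusted p = 3.64e-05). Of the TNF receptors, Tnfrsf1b rose by 1.10 in P72 and 0.65 in R72 at 4 h, while Tnfrsf1a, which carries a death domain, differed by -0.07 and 0.04 with no call. The lymphotoxin beta receptor Ltbr, known from stromal and myeloid cells, rose by 1.45 ± 0.24 and 0.63 ± 0.24, and Tnfrsf14, which also binds lymphotoxin alpha, by 1.35 ± 0.17 and 0.86 ± 0.17. The 4-1BB receptor Tnfrsf9 rose by 0.73 and 0.55 and the RANKL decoy Tnfrsf11b by 1.44 and 1.02. The RANKL receptor Tnfrsf11a rose by 1.66 in P72, and its R72 difference of 0.70 was not called (adjusted p = 0.0826). The TRAIL decoy Tnfrsf22 fell by 0.56 in P72 (adjusted p = 0.00682), with a R72 difference of -0.40 (adjusted p = 0.0542). In R72 samples at 4 h 8 receptors were called higher in the main fit, 3 with median centring and 5 with quantile normalization. Most of the R72 rises were thus not called with median centring. The decoy Tnfrsf23 was well above background on no 0 h array and on 2 of 4 arrays at 4 h in each genotype. It was called higher at 4 h in P72 (2.55, adjusted p = 0.000476, limma) and R72 (2.00, adjusted p = 0.00498). These sizes are not measured ones, since signal at background enters both sides.

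In p53+/+ samples 3 of the 11 receptors rose after irradiation, Tnfrsf10b, Tnfrsf14 and Tnfrsf11b, where 13.2% of all genes were called higher, and in p53-/- samples none was called, where 1.07% of genes were called in either direction. Tnfrsf9 and Tnfrsf11b passed an unadjusted p under 0.05 in p53-/- samples, where 2565 of the 20534 genes tested did. The difference in response was called for Tnfrsf10b and Tnfrsf14 (-1.84 ± 0.32, adjusted p = 0.00106). Between P72 and R72 samples at 4 h, Tnfrsf1b (0.58 ± 0.14, adjusted p = 0.0474) and Tnfrsf9 (0.57 ± 0.13, adjusted p = 0.0297) were higher in P72, where 0.672% of genes were, and with median centring 0 receptors were called there. Tnfrsf14 was lower in P72 at 0 h (-0.73 ± 0.17, adjusted p = 0.0384) and at 2 h (-0.68 ± 0.17, adjusted p = 0.0477). At 0 h 0 receptors were called with median centring or quantile normalization. No receptor was called in the P72 minus R72 difference in response.

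**Figure D5:**
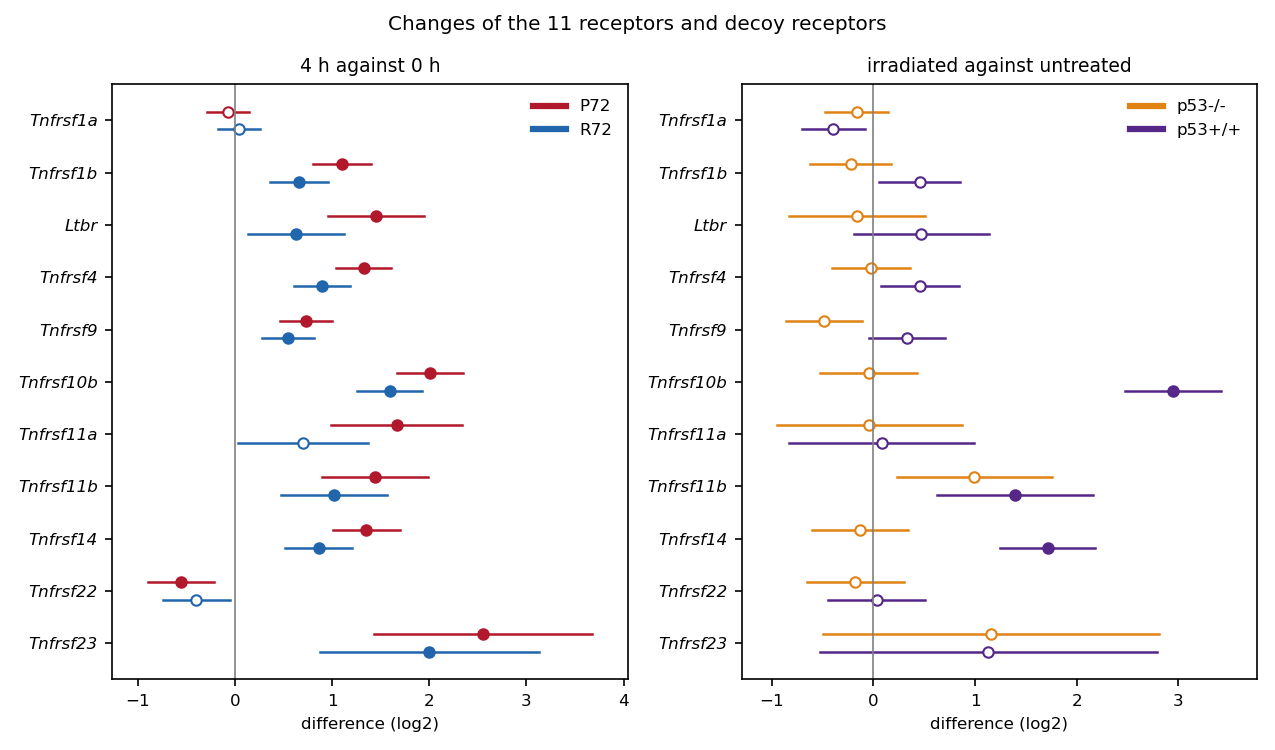
Differences in level (log2) after 5 Gy of the 11 receptors and decoy receptors. The left panel shows 4 h against 0 h in P72 and R72 thymocytes, and the right panel irradiated against untreated p53-/- and p53+/+ thymocytes. Bars are 95% intervals, and filled points were called at an adjusted p under 0.05. In P72 samples at 4 h 9 are called higher and Tnfrsf22 lower, and Tnfrsf1a lies at -0.07 in P72 and 0.04 in R72. In p53+/+ samples 3 are called higher, and in p53-/- samples none is called.

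Of 11 further ligands of the superfamily 8 passed the filter on dim probes, so the counts that follow leave out Tnfsf12, Tnfsf18 and Eda. In P72 samples 6 were higher and 0 lower at 4 h, and in R72 samples 3 were higher and 1, Cd40lg, lower (named here after its value was seen). The P72 count of higher ligands includes Tnfsf15, also named after its value was seen. That gene was well above background on no 0 h array and passed the filter through irradiated arrays alone. Of all genes 35.8% were higher and 20.8% lower in P72, and 28.8% higher and 16% lower in R72. With median centring these splits were 4 and 2, and 3 and 1. The CD30 ligand Tnfsf8 rose by 3.34 ± 0.19 in P72 (adjusted p = 4.5e-11) and 2.95 ± 0.19 in R72 at 4 h, and already by 2.26 and 2.13 at 2 h. Its p53-/- response minus p53+/+ response was -2.68 ± 0.37 (adjusted p = 7.36e-05). Fasl, the ligand of the death receptor Fas, rose by 1.57 ± 0.13 in P72 and 0.97 ± 0.13 in R72 at 4 h. Fasl was higher in P72 than in R72 samples at 4 h by 0.79 ± 0.13 (adjusted p = 0.00344), a call that median centring ended. The CD27 ligand Cd70 rose by 2.80 and 2.02, and Tnfsf13b, the B cell survival factor BAFF, rose by 0.64 in P72 (adjusted p = 4.81e-05), with 0.24 in R72 (adjusted p = 0.0746).

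Of 31 listed adaptors, kinases and NF-κB proteins, 30 were tested. In P72 samples 12 were higher and 6 lower at 4 h, and in R72 samples 11 were higher and 4 lower, with medians of 0.10 and 0.01 against 0.11 and 0.09 over all genes. These shares are near the 56.6% and 44.8% of all genes called in P72 and R72. With median centring 1 was higher and 20 lower in P72, and 1 higher and 17 lower in R72. The NF-κB subunit Relb rose by 1.41 ± 0.14 in P72 and 0.90 ± 0.14 in R72, and the subunit Nfkb2 by 0.92 and 0.69. The deubiquitinase Cyld, which restrains TNF signalling, rose by 0.80 ± 0.07 and 0.49 ± 0.07, and the inhibitor Tnip1 by 0.68 and 0.47. These 4 genes are named for the smallest p in P72 at 4 h, and no gene called lower is named. With median centring at most 1 of them was called higher in each genotype. None of the 30 was called between P72 and R72 samples at any time.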

How the data were processed

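Total RNA of mouse thymocytes was labelled with Cy3 and hybridised to 32 Agilent arrays. Per the file headers and the submitters' processing notes, the authors' Agilent Feature Extraction 9.5.3 made the deposited processed intensity values. The deposited value table holds log2 values, whose centring and scale are not stated in the sources used here, and served as an alternative. Control spots and flagged values (0.223%) were left out, spots of a probe averaged, the 75th percentile of each array subtracted after log2, and probes kept if well above background on at least 4 arrays. The probe with the highest mean level stood for a gene. No value was saturated. Symbols were updated for 5141 of the 22951 probes whose accession matched the RefSeq table. limma 3.58.1 in R 4.3.3 fitted the 24 P72 and R72 arrays, and the 8 p53 arrays with all 32, with Benjamini-Hochberg adjustment over all genes. The number of arrays, dim signal and the scaling limit the precision.

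The members and lists were chosen with earlier results of these data known. All 7 ligands and 11 receptors are named. Of the other lists, the 4 genes with the smallest p in P72 at 4 h against 0 h are named, and beside a ligand whose group means span 2 or more, the 3 genes of closest profile. The replicate numbers of P72 and R72 arrays were not taken as pairs, since not every same-numbered pair deviated together, although the Xist class follows the number. Alternatives covered background correction, scaling, the authors' table, dim probe filters, slide, scan date and replicate blocks, the arrays fitted, and each array left out. The scripts were tested on simulated data.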

Additional observations from a re-analysis of the deposited data

Results flagged for a closer look

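The response of Tnfsf4 to irradiation differed between the genotypes by a test of the difference itself. The p53-/- change was 1.17 and the p53+/+ change 7.62, each from 2 irradiated and 2 untreated arrays, and the difference in response was -6.45 ± 0.54 (adjusted p = 3.47e-08, limma). Untreated signals of both genotypes were not well above background, so these sizes are not measured ones. None of 42 sets of 4 arrays (the 7 ligands in the groups with 4 replicates) held an array that stood apart by Dixon's test.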

How the results depend on the processing

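Counts of the 7 ligands called moved as follows. P72 at 2 h (1): 3 with array median centring, 2 with the authors' table and 0 with the filter that asks for all 32 arrays, which drops Tnfsf4, Tnfsf9 and Tnfsf11. P72 at 4 h (3): 5 with normexp on a capped background, chosen after seeing the data, 6 with quantile normalization, and 5 with median centring, the authors' table or a fit on all 32 arrays. P72 at 4 h against 2 h (4): 2 with normexp or median centring, 1 on scan date 1 and 2 on scan date 2. R72 at 2 h (2): 1 with normexp, the authors' table, the filter or scan date 1 or 2 alone, and 0 on scan date 3. R72 at 4 h (2): 1 with normexp or the filter, 4 with quantile normalization or the authors' table and 5 with median centring. R72 at 4 h against 2 h (3): 1 with normexp, 0 on scan date 1 and 1 on scan date 3. p53+/+ irradiated (1): 3 with median centring, 0 with the filter, and 2 (Tnf too) with the scan date block, the replicate block (adjusted p = 0.0273), the crossed replicate block (0.026) or the 8 p53 arrays alone. p53-/- against p53+/+ untreated (1): 0 with either normexp, quantile normalization, median centring or the authors' table, and 2 (Tnfsf10 too) with the filter or a slide (fixed or random) or scan date block. Irradiated (1): 2 with quantile normalization or either replicate block, 5 with median centring, 0 with the filter and 3 with the 8 p53 arrays alone. Difference in response (1): 2 with median centring and 0 with the filter. Leaving out 1 array gave 1 to 2 calls for P72 at 2 h (2 without P72 2 h replicate 1), 2 to 5 for P72 at 4 h (5 without 0 h replicate 3), 3 to 4 and 2 to 4 for 4 h against 2 h in P72 and R72, 0 for untreated p53-/- against p53+/+, and 1 to 2 for the irradiated samples (2 without the p53+/+ array at 2 h) and for the difference in response (2 without the p53-/- array at 4 h). Among changes called in the main fit or under the alternative, the signs that turned were those of Lta and Ltb in P72 and Ltb in R72 at 4 h with median centring (-0.21, -0.39 and -0.31) and of Tnfsf10 in P72 at 4 h with the capped normexp (0.32). Signs of changes called in neither turned as well, such as that of Lta in R72 at 4 h, which went down to -0.32. Other causes of these moves were not tested. The replicate block raised P72 against R72 at 4 h from 0 to 1 call, Tnf (0.65, adjusted p = 0.0059). The numbers were not taken as pairs, since correlations of same-numbered deviations ran from -0.27 to 0.54 (median 0.12, against -0.03 for other numbers); Xist levels do follow the number, and the crossed pairing of the untreated p53 arrays, at -0.15 for equal numbers, was added after seeing the data. Dim signal limits Tnfsf4 at 0 h to an upper bound. Each p53 genotype has 1 array at each irradiated time, so 2 h and 4 h there cannot be tested apart.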
